A study of Mus musculus with 12 samples.

Results

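Astrocytes are the glial cells that surround synapses and blood vessels in the striatum, the brain region that receives most dopamine input. Described here are 10 mouse genes that serve as astrocyte markers, of 18208 genes in the RNA-seq table, chosen by name: Slc1a2, Slc1a3, Glul, Aqp4, Gja1, Gjb6, Gfap, S100b, Aldoc and Aldh1l1. The rule that picked them is this list of names and uses no threshold on a measured value. The study cross-linked the RNA-binding protein hnRNP H to its RNA in whole striatum, precipitated it with an antibody and sequenced the attached fragments (CLIP-seq), and sequenced RNA taken from the same tissue pools before cross-linking (RNA-seq). All mice were wild-type C57BL/6J animals aged 50 to 100 days, bred from Hnrnph1 mutant males and C57BL/6J females. Every mouse was given saline (10 ml/kg) on days 1 and 2. On day 3 the control group was given saline again and the treated group the psychostimulant methamphetamine at 2 mg/kg, and striata were taken 30 min later. Each replicate was a pool of striata from 4 mice, 2 females and 2 males, and there were 3 pools per treatment. The comparison asks whether binding or RNA level differed shortly after the drug.

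Astrocytes clear glutamate from the synapse through the transporters Slc1a2 (GLT-1) and Slc1a3 (GLAST), and glutamine synthetase (Glul) turns it into glutamine, which neurons take up again. They are joined to each other by gap junctions made of connexin 43 (Gja1) and connexin 30 (Gjb6), and their endfeet on blood vessels carry the water channel aquaporin 4 (Aqp4). hnRNP H binds runs of guanine in RNA and acts in splicing and in the processing of 3′ ends.

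RNA-seq libraries held 3935160 to 5091839 reads recovered from the deposited values, and CLIP libraries held 423057 to 1635338 reads in 147438 distinct positions of 100 bp. The 6 RNA-seq libraries fell into 2 sets on the first principal component, which took 65.6% of the variance of 7853 genes. Set A held saline pools 1 and 3 and methamphetamine pool 2, and set B held saline pool 2 and methamphetamine pools 1 and 3. The sides were the same when the 10 genes were left out (65.6%), and the first component of the CLIP positions put the pools on the same sides. The labels name no such sets: they come from the data and are not groups of the study. Markers of striatal projection neurons, such as Ppp1r1b (DARPP-32), summed to 11340 to 12822 CPM in set A and 7958 to 8875 CPM in set B. All 10 astrocyte genes were detected in every RNA-seq library, from 39 reads (Gjb6, saline pool 1) to 14380 reads (Slc1a2, methamphetamine pool 3). In such bulk tissue, fewer astrocytes and less RNA per astrocyte cannot be told apart.

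CLIP reads of the astrocyte genes lay mainly in 3′ untranslated regions (3′ UTRs). Of 8328 reads at 189 positions in the 10 genes, 83.6% lay at 46 3′ UTR positions, beside 8.11% of the 5596005 reads of all genes. The share was 79.3% to 87.8% in the 6 libraries, where that of all genes was 6.33% to 11.3%. Glul held 4681 of the reads, and the share was 65.7% without it. Introns held 16.0% of the reads of the 10 genes and 70.4% of those of all genes, and no read of the 10 genes lay at a coding-exon position. A position was taken as UTR if its midpoint lay in a UTR of any annotated transcript, even where another transcript has it as coding. Some touching positions had nearly the same counts, so a fragment may have been counted more than once. With each run of touching positions reduced to its highest one, the shares were 79.0% and 7.34%. With every touching position left out they were 55.8% of 1947 reads and 5.54%. Both alternatives were chosen after seeing the data.

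**Figure D1:**
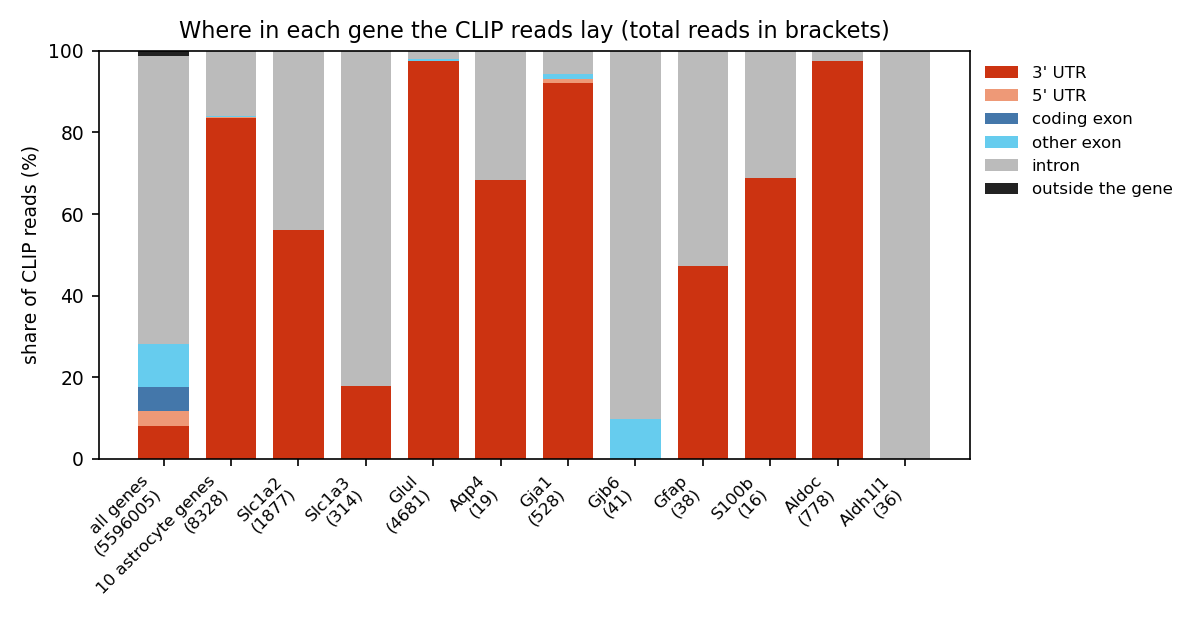
Share of CLIP reads (%, vertical axis) by gene region for all genes, the 10 astrocyte genes together and each of them, with total reads over 6 libraries in brackets. Glul, Aldoc and Gja1 are over 90% 3′ UTR, while Slc1a3, Gjb6 and Aldh1l1 are mostly or wholly intron.

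The genes differed in this share. It was 97.6% for Aldoc, 97.5% for Glul and 92.0% for Gja1, against 56.1% for Slc1a2 and 17.8% for Slc1a3, whose other reads were intronic. Of the Slc1a2 positions in the authors' deposited lists, mostly 3′ UTR, only 8 of 29 (methamphetamine) and 6 of 19 (saline) have a line in the count table, so its share, and any other count of its reads here, leaves out much of that 3′ UTR. Among the thinly covered genes it was 68.8% of 16 reads for S100b, 68.4% of 19 for Aqp4 and 47.4% of 38 for Gfap. Neither Gjb6 (41 reads) nor Aldh1l1 (36 reads) had a 3′ UTR read. Of 6563 genes with at least 100 CLIP reads, the median share was 0.0%, and 2.56% of them reached 90%, as Aldoc, Glul and Gja1 did.

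Shown next, among positions with counts, are the 3′ UTR sites with the most reads in the 4 genes with listed positions. For Glul and Aldoc the listed position with most reads is also shown. Each line gives 30 bases of the RNA strand (written with T) around the richest guanine stretch of the named position, with runs of 3 or more G in capitals. The sequences come from GENCODE M21 transcripts, in GRCm38 coordinates, and all 6 lie on the plus strand.
Slc1a2, chr2:102788826-102788855: tGGGGGcGGGGcagagctGGGagttagagg
Glul, position with most reads, chr1:153908375-153908404: agtaGGGagcGGGaGGGGGGaGGGGaaGGG
Glul, listed position, chr1:153908299-153908328: gcttttgttggtcagaatagaGGGGtcagg
Gja1, chr10:56388855-56388884: cttGGGGGGtgttttGGGatagctaggcgg
Aldoc, position with most reads, chr11:78326531-78326560: agatgccctcccatgtttgaagatGGGGGG
Aldoc, listed position, chr11:78326676-78326705: GGGatcaGGGGGacgtgaactccagccctg
The Glul site held 2034 reads, 43.5% of that gene's CLIP reads, and the 100 bases of its position hold 6 separate G-runs. One position carried 743 reads, 95.5%, in Aldoc. Slc1a2 had 373 reads and Gja1 222 reads at their highest counted positions. The listed positions of Glul and Aldoc held fewer, 365 and 16 reads.

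The motif GGG was searched on the RNA strand only, and a GGGG match is also a GGG match. It was present in 57.8% of the 45 astrocyte 3′ UTR positions that lay within 1 exon, against 63.6% of 12725 such positions of all genes. Weighted by reads, GGG positions held 87.9% of the astrocyte 3′ UTR reads and 78.5% of those of all genes, and GGGG positions held 62.5% and 49.1%. Glul alone gave 4552 of these 6948 astrocyte reads, so the pooled shares are mainly those of 1 gene. Touching positions with nearly the same counts may also enter more than once. By gene the read share at GGG positions was 100.0% for Aldoc, 96.2% for Glul and 86.6% for Gja1. It was below that of all genes for Slc1a2 (45.8%) and Slc1a3 (62.5% of 56 reads). A match describes the letters of the window and does not locate the bound base.

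The authors' deposited lists, 1 per treatment, named 38 astrocyte positions of 9903 after methamphetamine and 26 of 9537 after saline. Slc1a2 had 29 and 19 of them in the authors' deposited lists, Glul 5 and 6, Gja1 3 and 1, and Aldoc 1 and 0. The other 6 genes had no listed position. In the lists 89.5% (methamphetamine) and 88.5% (saline) of the astrocyte positions were 3′ UTR, beside 14.9% and 11.3% of all listed positions. Of the astrocyte positions, 20 overlapped a position of the other list, which is 52.6% of the methamphetamine list (Wilson 95% interval 37.3% to 67.5%) and 76.9% of the saline list (57.9% to 89.0%). Over all genes the shares were 48.7% and 50.0%. After methamphetamine 61.8% of 34 exonic astrocyte positions in the list held GGG, and after saline 65.2% of 23, against 75.8% and 77.8% of listed 3′ UTR positions of all genes, since all 34 and 23 were 3′ UTR.

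Of the 4 astrocyte genes with a listed position, 2 had their highest position listed. The Glul and Aldoc positions with most reads are in neither list, and the highest Slc1a2 and Gja1 positions are in both. Over all genes with a listed position, the highest position was listed for 72.2%, and for 58.7% of those with at least 100 reads there. Only 15 of 38 and 12 of 26 listed astrocyte positions have a line in the count table, against 9275 of 9903 and 9162 of 9537 for all genes. Most of those without one are in Slc1a2.

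The 2 glutamate transporters were the astrocyte genes whose CLIP reads were higher in every methamphetamine pool than in every saline pool among those tested. CLIP reads of Slc1a2 stood at 221, 215 and 254 CPM (counts scaled by the library total) in saline pools 1 to 3 and at 724, 266 and 368 CPM in methamphetamine pools 1 to 3. Methamphetamine pool 1 was far above the others, and pool 2 lay close to saline pool 3. With edgeR's quasi-likelihood test the log2 change was 0.98 (SE 0.43, as the change over the root of F), with an adjusted p of 0.883 and an unadjusted p of 0.0485. Without methamphetamine pool 1 it was 0.44. With each run of touching positions reduced to its highest one it was 0.86 (edgeR unadjusted p 0.083). With the library set as a term it was 0.69 (edgeR unadjusted p 0.153). The groups did not overlap for 9.34% of 8177 genes tested, in either direction.

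Slc1a3, the second transporter, stood at 47.5, 44.9 and 41.0 CPM in saline pools and 101, 54.1 and 55.4 CPM in methamphetamine pools. Here too methamphetamine pool 1 was the highest, and the other 2 lay just above saline pool 1. Its log2 change was 0.66 (SE 0.42, edgeR adjusted p 0.883), and 0.27 without methamphetamine pool 1.

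Glul, the enzyme downstream of both transporters, had the most CLIP reads: 426, 711 and 864 CPM in saline pools and 1384, 997 and 475 CPM in methamphetamine pools. The groups overlapped, with methamphetamine pool 3 below 2 saline pools. The log2 change was 0.50 (SE 0.46, edgeR adjusted p 0.885), and 0.096 without methamphetamine pool 1, 0.76 without pool 3 and 0.19 without saline pool 1.

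Gja1, the main astrocyte connexin, had 75.0, 78.0 and 83.8 CPM after saline and 134, 114 and 75.6 CPM after methamphetamine. Methamphetamine pool 3 fell within the saline range. Its log2 change was 0.44 (SE 0.37, edgeR adjusted p 0.884), and 0.23 without methamphetamine pool 1. Aldoc, a brain form of the glycolytic enzyme aldolase, had 154, 163 and 104 CPM in saline pools and 115, 141 and 225 CPM in methamphetamine pools, with a log2 change of 0.17 (SE 0.41, edgeR adjusted p 0.948). Here the highest pool was methamphetamine pool 3 and the lowest saline pool 3.

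**Figure D2:**
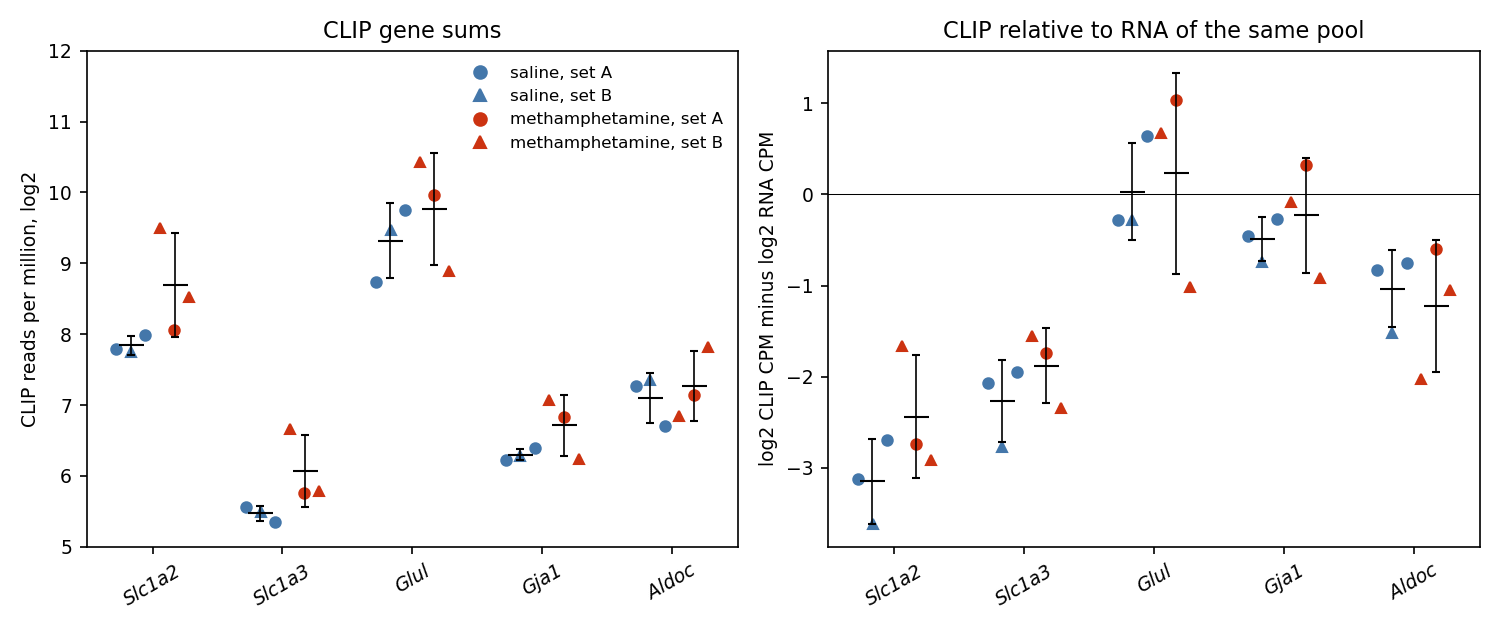
Left, CLIP CPM on a log2 axis for the 5 genes with enough reads to test; right, log2 CLIP CPM minus log2 RNA CPM of the same pool. Points are pools (circles set A, triangles set B, blue saline, red methamphetamine), bars are means and SD of 3 pools; Slc1a2 and Slc1a3 have all methamphetamine pools above all saline pools on the left but overlap on the right.

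The other 5 genes had too few CLIP reads for the filter: Aqp4 19, Gjb6 41, Gfap 38, S100b 16 and Aldh1l1 36 over 6 libraries. Aldh1l1 had 1, 1 and 2 reads in the saline pools against 24, 3 and 5 in the others, so its groups did not overlap but most of its reads came from 1 pool. For Gjb6 the saline pools gave 5, 2 and 20 reads, the treated pools 1, 6 and 7. Gfap had 2, 4 and 10, then 3, 10 and 9 reads, S100b 0, 2 and 4, then 3, 5 and 2, and Aqp4 5, 2 and 4, then 3, 2 and 3. The treatment groups overlap in Gjb6, Gfap, S100b and Aqp4.

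For none of the 5 tested genes did the adjusted test pass, and 0 of 8177 genes did (0.0%), with 429 at an unadjusted p under 0.05. Their median log2 change was 0.50 beside 0.038 for all genes tested, and all 5 changes were above 0, as were 52.3% of genes. Because a gene could pass the filter through 1 high group, that median and count describe the 5 genes only. At single positions, 18 astrocyte positions passed the filter. Those with an unadjusted p under 0.05 were 2 touching Slc1a2 positions, chr2:102788760-102788859 and chr2:102788860-102788959, whose counts were nearly the same in each library. The first counted 38, 14 and 99 reads in saline pools against 108, 56 and 58 in treated pools, or 43.2 ± 15.1 and 91.1 ± 31.3 CPM (SD, 3 pools each). Its log2 change was 1.30 (SE 0.50, edgeR unadjusted p 0.0325, adjusted p 0.996). That of the second was also 1.30 (SE 0.50, edgeR unadjusted p 0.0326). Over all genes 3.56% of 10358 positions had such an unadjusted p, and 0 (0.0%) passed the adjusted test.

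**Figure D3:**
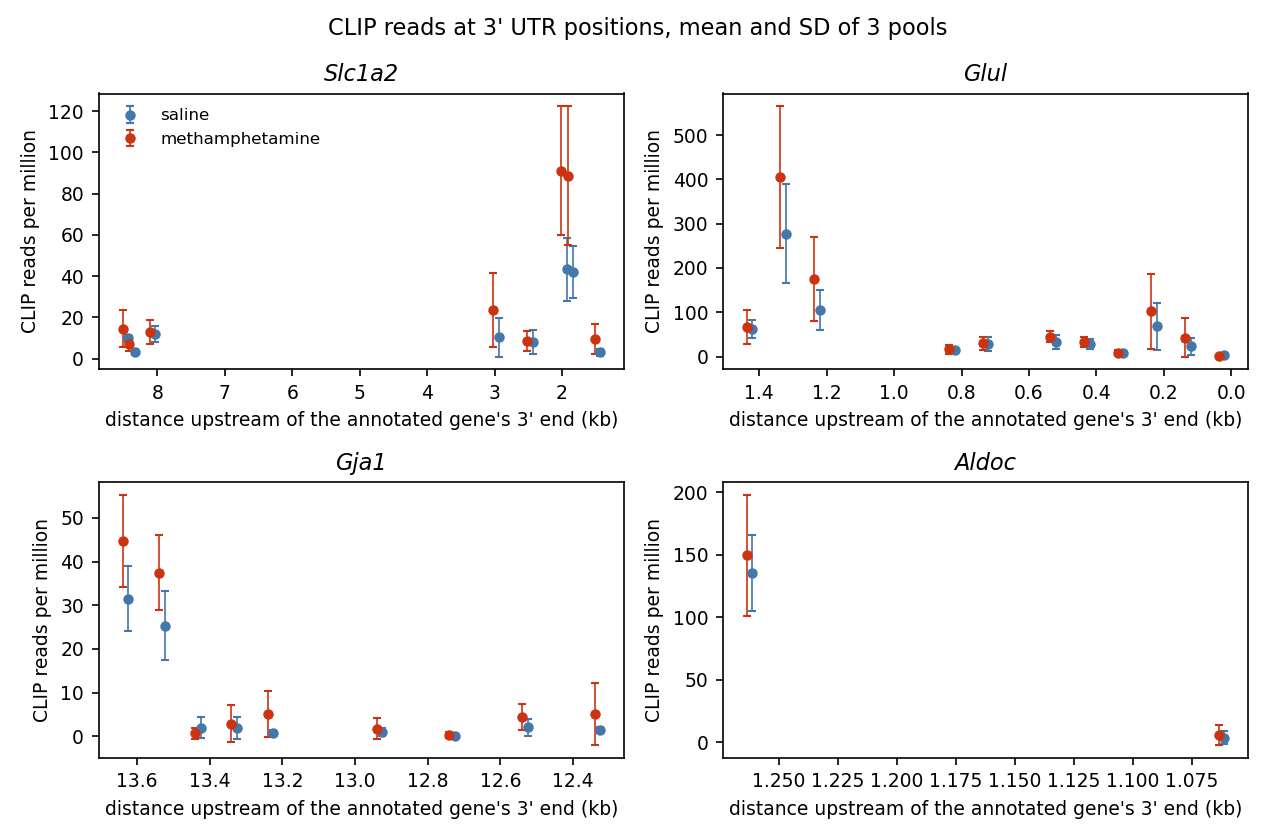
CLIP CPM at each 3′ UTR position (mean and SD of 3 pools, blue saline, red methamphetamine, shifted sideways for clarity) against distance upstream of the annotated gene's 3′ end in kb. Among positions with counts, reads concentrate at 1 or 2 places per gene, such as the pair of touching Slc1a2 positions at 43.2 CPM (saline) and 91.1 CPM (methamphetamine). Much of the Slc1a2 3′ UTR in the authors' deposited lists has no counts and is not drawn, so its panel does not show where binding concentrates.

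RNA levels per length put Glul first. Its mean over 6 libraries was 213 CPM per kb of exon, followed by Slc1a2 at 166, Aldoc at 106, S100b at 46.7, Gfap at 33.5 and Slc1a3 at 28.2. Aldh1l1 stood at 16.3, Gja1 at 11.6, Gjb6 at 6.94 and Aqp4 at 6.13 CPM per kb. Ranges over the libraries overlapped between neighbours in this order except for Aldh1l1 and Gja1. Even so, Glul was above Slc1a2 in 6 of 6 libraries, by 0.33 ± 0.20 (SD) on the log2 scale, whereas Gfap was above Slc1a3 in 4 of 6.

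RNA of no astrocyte gene differed between treatments by more than the spread of the pools. All 10 limma changes were above 0, from 0.07 to 0.59 on the log2 scale, where 50.4% of 18208 genes were above 0. Their median was 0.22 against 0.0020 for all genes. None passed the test (all at an adjusted p of 0.9998, limma), nor did any of 18208 genes (0.0%), of which 276 had an unadjusted p under 0.05. In no astrocyte gene were the groups apart, as they were in 6.01% of all genes.

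Among the glutamate genes, Slc1a2 stood at 10.92, 11.38 and 10.68 log2 CPM in saline pools 1 to 3 and 11.17, 10.80 and 11.44 in methamphetamine pools 1 to 3. Its change was 0.14 (SE 0.28). Slc1a3 stood at 7.66, 8.30 and 7.32, then 8.22, 7.52 and 8.16, a change of 0.21 (SE 0.28). In both, saline pool 2 was above methamphetamine pool 1, and methamphetamine pool 2 lay among the lower libraries. Glul stood at 9.02, 9.75 and 9.11, then 9.76, 8.92 and 9.92, a change of 0.24 (SE 0.30), with methamphetamine pool 2 the lowest of the 6.

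Aqp4, the water channel, stood at 4.79, 5.32 and 4.98 log2 CPM after saline and 6.02, 4.91 and 5.13 after methamphetamine, a change of 0.32 (SE 0.29). Methamphetamine pool 1 was the highest library and the rest overlapped. Gja1 stood at 6.69, 7.05 and 6.67, then 7.16, 6.52 and 7.18, a change of 0.15 (SE 0.21). Gjb6, its partner connexin, stood at 3.47, 4.75 and 3.86, then 4.81, 3.58 and 4.23, a change of 0.18 (SE 0.39). Both connexins were lowest or nearly so in methamphetamine pool 2.

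Gfap, the intermediate filament of astrocytes, had the largest change among the 10, 0.59 (SE 0.37), from 6.05, 6.51 and 7.63 log2 CPM after saline and 7.52, 6.87 and 7.57 after methamphetamine. Saline pool 3 was the highest library of all, so the groups overlapped. The change was 0.25 without saline pool 1 and 1.04 without saline pool 3; without saline pool 2 it was 0.48, below those of Aldoc (0.72) and Gjb6 (0.54). S100b, a calcium-binding protein, stood at 5.67, 6.29 and 5.93, then 6.63, 5.82 and 6.14, a change of 0.23 (SE 0.24). Aldoc stood at 8.10, 8.88 and 7.46, then 8.88, 7.75 and 8.87, a change of 0.36 (SE 0.40). Aldh1l1, a folate enzyme used to mark astrocytes, stood at 6.01, 6.06 and 6.41, then 6.32, 6.33 and 6.04, a change of 0.07 (SE 0.17). It varied least among the 10.

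**Figure D4:**
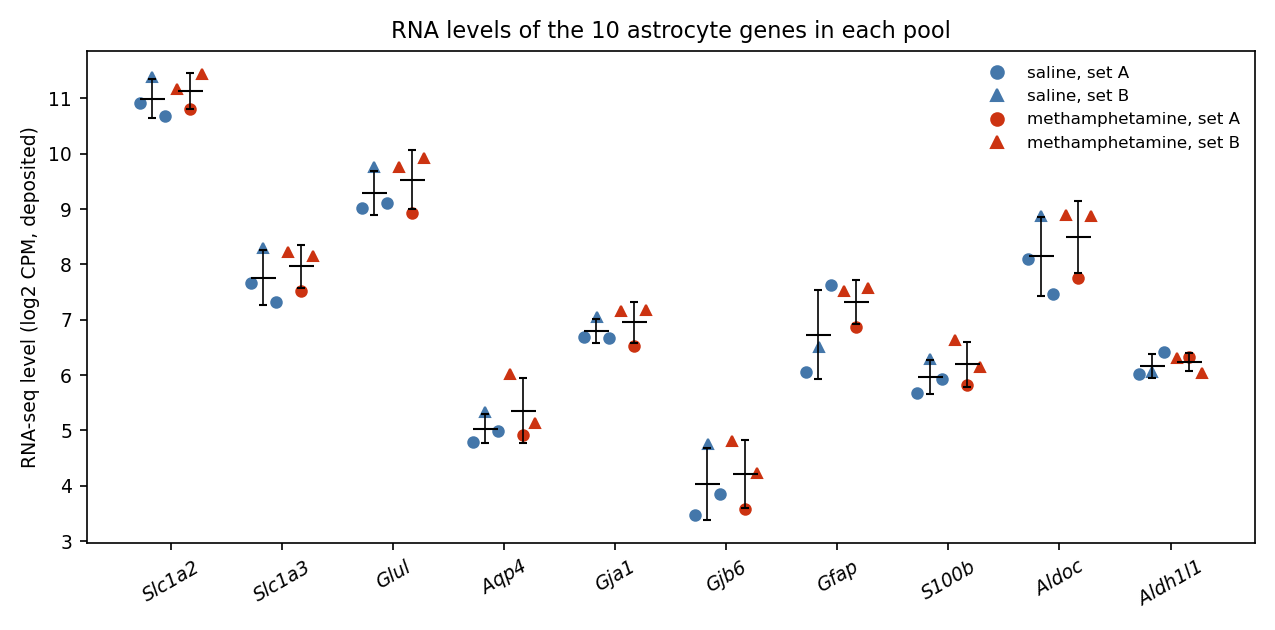
RNA-seq level in log2 CPM (vertical axis) of each gene in the 6 pools: blue saline, red methamphetamine, circles library set A, triangles set B, bars mean and SD of 3 pools. In 8 genes all triangles lie above all circles, while blue and red overlap in all 10.

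Most of the genes followed the library sets. In 8 of the 10 (all but Gfap and Aldh1l1), each set B library was above each set A library, as in 26.4% of 7853 genes with a mean log2 CPM above 4; 19.9% of those genes had each set B library below. Set B was 2.16-fold set A for Aldoc, 1.95-fold for Gjb6, 1.73-fold for Glul and 1.66-fold for Slc1a3. It was 1.51-fold for Aqp4, 1.46-fold for S100b, 1.44-fold for Slc1a2 and 1.42-fold for Gja1, against 1.28-fold for Gfap and 0.926-fold for Aldh1l1. These are descriptions of sets found in the data, with no test. Of the 6 libraries, the deposited scaling lowered the library size to 0.860 to 0.904 of the reads in set A and left it at 1.01 to 1.02 in set B; scaled by library total the same 8 genes stood apart and the median difference was 0.77 rather than 0.57.

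Treatment and set crossed unevenly, with 2 of 3 methamphetamine pools in set B and 2 of 3 saline pools in set A. With the set as a term in the limma fit, the median change of the 10 genes was -0.018, beside -0.011 for all genes. Slc1a2, Slc1a3, Glul, Gja1, Gjb6 and Aldoc then had changes below 0 and the other 4 above 0. The median difference between treatments was 0.0049 within set A (3 libraries) and 0.087 within set B (3 libraries). Gfap kept a change of similar size, 0.53 (SE 0.37), with 0.024 within set A and 1.04 within set B.

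**Figure D5:**
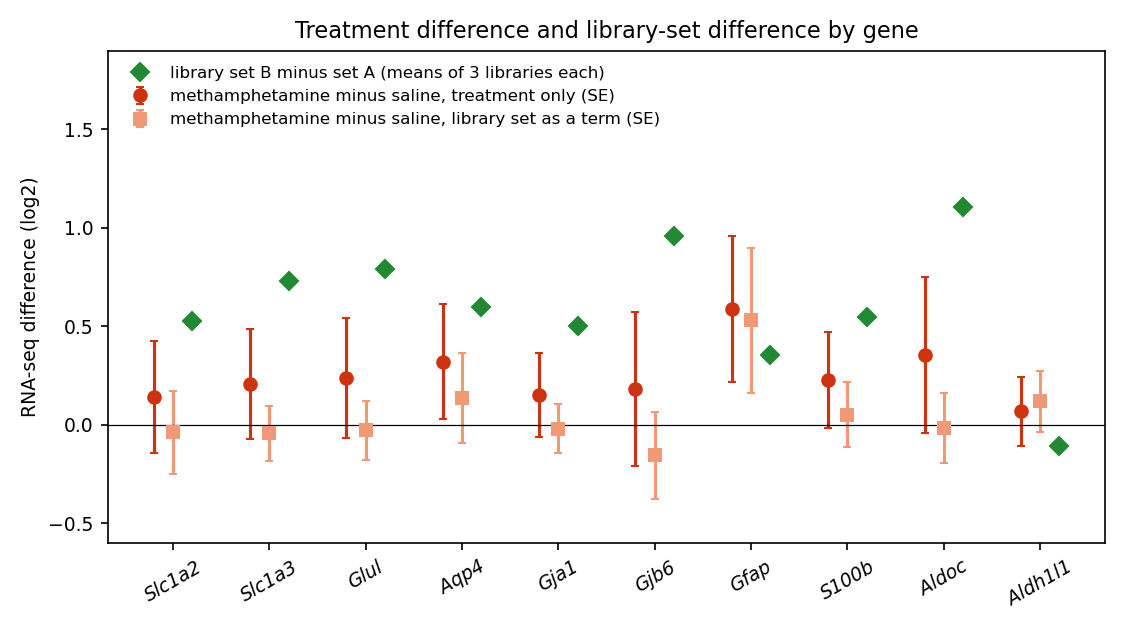
RNA-seq differences in log2 for each gene: methamphetamine minus saline from limma with treatment only (circles) and with the library set as a term (squares), both with SE, and set B minus set A means of 3 libraries (diamonds). The diamonds lie above the circles in 8 genes, and Gfap keeps 0.53 with the set in the fit.

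Lists of related genes were read against the same shares, 26.4% above and 19.9% below, which cover genes with a mean log2 CPM above 4 while the lists hold some lower ones. Among 26 other astrocyte markers, 13 had each set B library above each set A library and 2 had each below, and 22 of 26 limma changes were above 0. The list's median change was 0.09. Dio2 (deiodinase), with its smallest p, changed by 0.46 (SE 0.28), and Apoe, its most abundant gene, by 0.18 (SE 0.23). No gene of any list passed the adjusted limma test.

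Of 17 further genes of the glutamate and glutamine cycle, 5 had each set B library above set A; Slc17a7, the vesicular glutamate transporter of cortical neurons, changed by 1.09 (SE 0.57) and the transaminase Got1 by 0.17 (SE 0.25). Of 15 potassium and endfoot genes, 4 were above and 2 below. Aqp1, a water channel also on the choroid plexus list, changed by 2.45 (SE 1.20). It had 5.34 log2 CPM in methamphetamine pool 2 and under 1 in the other pools. The choroid plexus markers summed to 5044 CPM in that pool and 87.9 to 264 CPM elsewhere. Of 10 connexins and pannexins, 3 were above; the connexin Gjb1 changed by 0.46 (SE 0.36). Of 22 genes of glycolysis, lactate and one-carbon metabolism, 8 were above and 1 below; Slc16a1, a lactate transporter, changed by 0.40 (SE 0.24) and Pkm by -0.04 (SE 0.25). Of 20 filament and reactive genes, 1 was above and 4 below; Lcn2 changed by -0.89 (SE 0.60) and Hspb1 by -0.10 (SE 0.26).

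Markers of other cells were counted in the same way, beside the same 26.4% and 19.9%. Of 12 genes each, set B was above set A in every library for 5 oligodendrocyte, 5 microglial, 5 endothelial and 7 cortical excitatory neuron markers, and below for 0, 0, 1 and 0. For 12 striatal projection neuron markers it was above for 0 and below for 8. For 12 markers of neurons in general it was above for 6 and below for 1. Of 8 oligodendrocyte precursor markers, set B was above set A for 1 and below for 0. Of 12 choroid plexus markers, set B was above for 0 and below for 4. The choroid plexus markers also stood apart in methamphetamine pool 2, a set A pool, at 5044 CPM against 87.9 to 264 CPM elsewhere, mostly Ttr. In set B the 10 astrocyte genes summed to 4540 to 5018 CPM and in set A to 3022 to 3260 CPM, while the cortical markers summed to 587 to 1023 and 256 to 534 CPM. What tissue makeup contributed to the set difference was not tested.

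By treatment, 12 of 12 oligodendrocyte markers had changes above 0 (median 0.44), as had 11 of 12 cortical excitatory neuron markers (median 0.35). All 12 striatal projection neuron markers had changes below 0 (median -0.23). Over all genes 50.4% of changes were above 0. With the library set as a term the 3 medians were 0.31, 0.29 and -0.15. Other lists also leaned above 0: choroid plexus 10 of 12 (median 0.42, or 1.12 with the set), microglia 9, endothelium 8 and neurons in general 9 of 12. Of 8 oligodendrocyte precursor markers 6 were above 0. None of these lists had a gene past the adjusted limma test. Penk, the enkephalin precursor, had the smallest p of the striatal list, with a change of -0.30 (SE 0.17).

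Genes with profiles most like the mean of the 10 were Scd2, Dhrs7b, Atp1b2, Fn1 and Prxl2a. Their root mean square distance over the 6 libraries, on centred log2 CPM, was 0.038, 0.056, 0.058, 0.061 and 0.072, where the median over genes with a mean log2 CPM above 4 was 0.351. Of the 10 themselves, S100b was nearest at 0.098 and Gja1 next at 0.104, while Gfap was farthest at 0.527.

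Set beside RNA of the same pool, the 5 tested genes spread widely. The median of log2 CLIP CPM minus log2 RNA CPM was -1.13 for them and 0.096 for 7029 genes tested, whose quartiles were -1.26 and 1.92. All of these had passed the CLIP count filter, which leaves out genes with few CLIP reads, so positions in the order hold among such genes only. Without the filter the medians were -2.43 for the 10 genes and -0.77 for all genes. Glul stood at 0.13 ± 0.78 (SD, 6 pools) and Gja1 at -0.36 ± 0.45. Aldoc stood at -1.13 ± 0.54, Slc1a3 at -2.08 ± 0.44 and Slc1a2, the most abundant of the 10 by reads, at -2.79 ± 0.65, with 93.7% of genes above it. For Slc1a3 86.6% of genes were above, for Gja1 58.6% and for Glul 49.4%. Since much of the Slc1a2 3′ UTR has no counts, its value is not a measure of binding over the whole transcript.

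Methamphetamine and saline pools overlapped for all 5 on this scale. Slc1a2 stood at -3.13, -3.62 and -2.69 in saline pools and -1.67, -2.74 and -2.91 in methamphetamine pools, a limma change of 0.71 (SE 0.56), or 0.32 without methamphetamine pool 1 and 0.47 without saline pool 2. Slc1a3 changed by 0.39 (SE 0.50), or 0.13 without saline pool 2 and 0.22 without methamphetamine pool 1. The changes were 0.26 (SE 0.50) for Gja1, 0.20 (SE 0.64) for Glul and -0.19 (SE 0.54) for Aldoc. Of these changes 4 of 5 were above 0, beside 54.1% of 7029 genes. None passed the adjusted limma test, nor did any of 7029 genes (0.0%), of which 213 had an unadjusted p under 0.05.

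CLIP reads were also set against the library sets. For 0 of the 5 CLIP sums was each set B library above each set A library, as it was for 10.9% of 8177 genes. On the scale relative to RNA, Aldoc had each set B library below each set A library, at -0.83, -0.75 and -0.60 in set A and -1.52, -2.03 and -1.05 in set B, as had 15.8% of 7029 genes. The other 4 overlapped between the sets.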

How the data were processed

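Per the file headers and values, the RNA-seq table holds log2 CPM deposited by the authors, with an offset of 0.5 reads and scaled to effective library sizes; all values gave whole reads within a relative tolerance of 0.02. The deposited CLIP table holds whole-number counts per position, of which 172271 lines gave 147438 distinct positions. The authors' deposited lists give a signal score, p-values and q-values per peak, by a test not given in the sources used here. The submitters' processing notes name mm10, Trimmomatic, UMI-tools, STAR, bedtools, Subread, featureCounts, limma and edgeR, with no roles. Whether counting used strand is not given there; exons of Slc1a2, Glul and Aldh1l1 overlap other annotated genes, and reads could be shared.

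RNA was tested with limma 3.58.1 (trend) over 18208 genes. For CLIP counts, per position and summed per gene, the quasi-likelihood test of edgeR 4.0.16 was used after filterByExpr and TMM, in R 4.3.3. RNA-adjusted binding was tested with limma on the difference between assays within a pool. All used Benjamini-Hochberg adjustment at 0.05. Tests on recovered reads with edgeR and DESeq2 1.42.0 called 0 and 0 genes. Regions and exon lengths came from GENCODE M21. The fits were tested on simulated data. Alternatives covered offset, filters, scaling, tool, replicate block, library set and each replicate left out. Pools with equal numbers did not deviate together, and the main fits did not pair them. Each such pair lay in opposite library sets, so whether the numbers pair pools cannot be told from this. The pools mix litters, and p-values measure the spread between pools.

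The 10 genes, the lists and the rule for named genes were chosen with earlier results of these data known. The rule names all 10 genes, each gene's listed position with most reads, positions with an unadjusted p under 0.05, each list's smallest-p and most abundant gene, and the 5 nearest profiles; some genes the rule names are not reported here. For marker lists of other cells, only the genes a result turns on are named. Mutant samples were not analysed here.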

Additional observations from a re-analysis of the deposited data

How the results depend on the processing

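No alternative called an RNA-seq gene, a CLIP gene sum or an RNA-adjusted gene: 0 in each, also with each replicate left out (0 to 0). CLIP positions gave 0 calls except without a count filter, where 414 of 140449 were called. The 10 genes' RNA median was 0.06 to 0.47 and the tested genes' CLIP median 0.27 to 0.73 with each replicate left out. Their median of CLIP relative to RNA was -1.23 to -0.95, and -2.43 without a count filter, which admits all 10 genes. Over all genes that median was -0.77 without the filter and 0.096 with it. With the replicate number as a block the numbers of calls stayed 0, the RNA median was 0.22 and the CLIP median 0.42. Correlations between same-numbered pools were -0.35, -0.82 and -0.49 in RNA-seq and -0.36, -0.55 and -0.08 in CLIP. Each same-numbered pair lay in opposite library sets, so these correlations cannot tell whether the numbers pair the pools. Unadjusted p under 0.05 fell from 276 to 144 RNA-seq genes under that block.

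RNA changes turned sign with the library set as a term for Slc1a2 (-0.039), Slc1a3 (-0.043), Glul (-0.029), Gja1 (-0.019), Gjb6 (-0.16) and Aldoc (-0.016). Leaving out single replicates gave RNA changes of -0.016 to 0.33 for Slc1a2, -0.014 to 0.48 for Slc1a3, -0.013 to 0.54 for Aqp4, -0.12 to 0.54 for Gjb6, -0.0061 to 0.19 for Aldh1l1, 0.25 to 1.04 for Gfap, 0.012 to 0.73 for Aldoc, 0.047 to 0.54 for Glul, 0.038 to 0.37 for Gja1 and 0.011 to 0.42 for S100b. CLIP changes ranged from -0.21 to 0.35 for Aldoc, 0.096 to 0.76 for Glul, 0.23 to 0.58 for Gja1, 0.44 to 1.15 for Slc1a2 and 0.27 to 0.73 for Slc1a3. RNA-adjusted changes ranged from 0.32 to 0.94 for Slc1a2, 0.13 to 0.62 for Slc1a3, -0.20 to 0.83 for Glul, -0.013 to 0.61 for Gja1 and -0.50 to 0.21 for Aldoc, which was 0.084 with the set as a term. The cause was not tested.

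Of listed astrocyte positions at or above their list's median signal, 7 of 8 (methamphetamine, 87.5%) and 6 of 7 (saline, 85.7%) were shared. Over all genes the shares at that cut were 59.6% and 56.1%. Among the exonic astrocyte ones, GGG was held by 62.5% of 8 (methamphetamine) and 100.0% of 6 (saline). Those of all genes held it in 83.3% and 83.2%. Of all exonic astrocyte positions in the methamphetamine list 32.4% held GGGG, beside 48.8% of exonic and 45.1% of 3′ UTR positions of all genes. In the saline list 47.8% did, beside 49.9% and 46.0%. After extension by 50 nt on each side, 88.2% (methamphetamine) and 78.3% (saline) held GGG. For exonic positions of all genes these were 93.7% and 95.1%. The 3′ UTR read share was 79.0% with touching positions merged, 55.8% with them left out, 65.7% without Glul and 82.6% to 85.2% with each replicate left out, alternatives chosen after seeing the data. CLIP depth limits single genes: 5 of the 10 had 16 to 41 reads in all.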
